A study of Mus musculus with 4 samples.

Results

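Integrins are the membrane receptors by which a cell holds on to the matrix, and focal adhesion adaptors are the cytoplasmic proteins that join them to actin. The mRNAs of both were compared between purified migrasomes and cytosol. The 40 members were taken by a rule on gene symbols, out of 49568 symbols in the deposited table. That rule was set with earlier results of these data known. It gave 26 integrin chains (18 alpha chains, with symbols starting Itga, and the 8 beta chains Itgb1 to Itgb8) and 14 adaptors. The series holds 4 mouse RNA libraries, 2 of migrasome and 2 of cytosol, made from total RNA. The labels give no genotype, strain, treatment or cell of origin. They also do not say how the cytosol was prepared, or whether replicate libraries stem from different cultures. The p-values therefore reflect no more than the spread between these libraries, which may be technical. The libraries held 5171092 to 8608369 reads assigned to genes.

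Each integrin is a pair of 1 alpha and 1 beta chain, and both chains cross the membrane once, with a large part outside the cell and, in most chains, a short tail inside; the beta 4 chain, with its long tail, is the exception. Talins and kindlins bind the beta tail, the trio of integrin-linked kinase, PINCH and parvin sits beside them, vinculin and zyxin connect to actin, and paxillin, focal adhesion kinase and p130Cas carry signals. Integrin mRNAs are translated by ribosomes bound to the endoplasmic reticulum, whereas adaptor mRNAs are translated by free ribosomes. Migrasomes are vesicles that form on retraction fibres, the thin tethers that a migrating cell pulls out as it leaves attachment sites behind, and integrins are known to hold these fibres to the matrix.

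The classes also differ in a feature that can be read from the coding sequence, shown here because the results below are set against it. A codon with T as the second base encodes phenylalanine, leucine, isoleucine, methionine or valine, which are all hydrophobic, so a run of such codons marks a stretch that can span a membrane. For each gene the stretch of 21 codons richest in them was found in its principal coding transcript (GENCODE M21, build GRCm38). Where several stretches tied, the first was taken. The lines below give that stretch 5′ to 3′ on the mRNA strand, with the T-second codons in capitals, for the 5 most abundant integrins and for the 5 adaptors that passed the test below.
Itgb1: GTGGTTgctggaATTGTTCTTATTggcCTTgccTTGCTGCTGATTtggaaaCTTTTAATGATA
Itgav: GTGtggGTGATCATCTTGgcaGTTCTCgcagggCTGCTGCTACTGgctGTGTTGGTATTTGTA
Itga5: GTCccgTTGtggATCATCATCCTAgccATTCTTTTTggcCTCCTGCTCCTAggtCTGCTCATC
Itga6: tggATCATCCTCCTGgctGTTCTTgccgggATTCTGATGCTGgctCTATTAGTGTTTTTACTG
Itgb5: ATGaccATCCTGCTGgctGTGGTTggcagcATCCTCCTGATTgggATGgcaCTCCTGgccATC
Tln1: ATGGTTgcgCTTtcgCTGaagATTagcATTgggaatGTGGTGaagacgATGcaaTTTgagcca
Parva: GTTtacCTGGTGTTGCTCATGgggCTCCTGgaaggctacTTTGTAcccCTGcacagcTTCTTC
Vcl: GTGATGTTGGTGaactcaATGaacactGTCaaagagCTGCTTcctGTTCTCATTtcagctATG
Bcar1: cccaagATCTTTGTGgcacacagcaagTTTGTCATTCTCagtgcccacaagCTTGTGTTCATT
Tgfb1i1: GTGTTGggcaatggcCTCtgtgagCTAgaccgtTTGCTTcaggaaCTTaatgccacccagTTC
The integrin stretches hold 14 to 16 T-second codons of 21 in these 5 genes. The stretch of Itgb1 covers codons 736 to 756 of 798, that of Itgav codons 990 to 1010 of 1044, and in 23 of the 26 integrins it ends within the last 100 codons. The adaptor stretches hold fewer, with 10 in Tln1, 12 in Vcl, 11 in Bcar1 and 8 in Tgfb1i1, and Parva, at 13, comes nearest to the integrins. The first 30 codons, where a signal peptide is encoded, overlap between the classes, with 8 to 13 T-second codons in the 10 integrins tested and 5 to 12 in the 14 adaptors. That start is printed for the integrins with the most and the fewest among those that fell, Itgav (13) and Itga5 (8), and for the adaptors with the most and the fewest among those that rose, Tln1 (12) and Parva (5).
Itgav first 30 codons: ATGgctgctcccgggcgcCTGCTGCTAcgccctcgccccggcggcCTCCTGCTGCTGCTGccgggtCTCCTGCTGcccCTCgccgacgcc
Itga5 first 30 codons: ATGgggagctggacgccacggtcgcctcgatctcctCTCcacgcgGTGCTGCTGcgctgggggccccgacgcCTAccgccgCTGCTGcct
Tln1 first 30 codons: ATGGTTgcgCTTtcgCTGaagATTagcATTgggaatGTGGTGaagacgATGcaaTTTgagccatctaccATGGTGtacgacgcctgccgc
Parva first 30 codons: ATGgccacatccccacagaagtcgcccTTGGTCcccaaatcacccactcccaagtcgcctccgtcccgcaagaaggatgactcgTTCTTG
In Itgav, whose start codon lies on chromosome 2 from 83724735 to 83724737 (plus strand), runs of leucine codons such as CTCCTGCTGCTGCTG fill the start of the coding sequence. In Parva, whose start codon lies on chromosome 7 from 112427965 to 112427967 (plus strand), there are 5 T-second codons in the same length, and the start of Tln1 holds more than that of Itga5.

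Values are normalised read counts as the authors deposited them (counts divided by 1 size factor per library). Each difference is the migrasome mean less the cytosol mean of log2(value + 1), given with its standard error (SE) or a 95% interval. The 10860 genes that reached 10 in 2 or more libraries were tested together with limma, at an adjusted p (Benjamini-Hochberg) of 0.05. Of the 10860, 17.7% passed as lower in migrasome and 8.68% as higher. In numbers these were 1919 lower and 943 higher. Scaling every library to the same total turned these into 2522 and 322, and quantile normalization into 1403 and 1194. A single gene in 2 libraries against 2 cannot go below p = 0.33 in an exact permutation test, so each call rests on the spread shared across genes. Because the material is bulk, fewer migrasomes carrying an mRNA and fewer copies in each cannot be told apart.

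The integrin mRNAs that changed were all lower in migrasome. Of the 10 chains that passed the filter, 6 fell (Itgb1, Itgav, Itgb5, Itga6, Itga5 and Itgb7) and 4 did not pass. Their median difference on the log2 scale was -1.62, against -0.0043 over all genes tested. Of the 14 adaptors, 3 rose (Tln1, Parva and Tgfb1i1), 2 fell (Vcl and Bcar1) and 9 did not pass, with a median of 0.45. Over all tested genes 17.7% were lower and 8.68% higher, so the 2 of 14 adaptors that fell are near that share. The medians lay 2.07 apart. A second summary took the median level, log2(value + 1), of each class in each library. The adaptor median less the integrin median was then 1.99 and 1.76 in cytosol and 3.21 and 3.25 in migrasome, a shift of 1.35. In it the adaptor median hardly moved, from 9.05 in cytosol to 9.02 in migrasome. In the libraries themselves integrin reads per 100 adaptor reads came to 76.7 and 70.8 in the cytosol pair, and to 14.4 and 19.1 in the migrasome pair. This ratio is formed within a library and so does not depend on the scaling between libraries. Integrins took 0.119% ± 0.0097 of assigned reads in cytosol and 0.0314% ± 0.0057 in migrasome, and adaptors 0.161% ± 0.0041 and 0.188% ± 0.0036 (SD, n = 2).

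**Figure D1:**
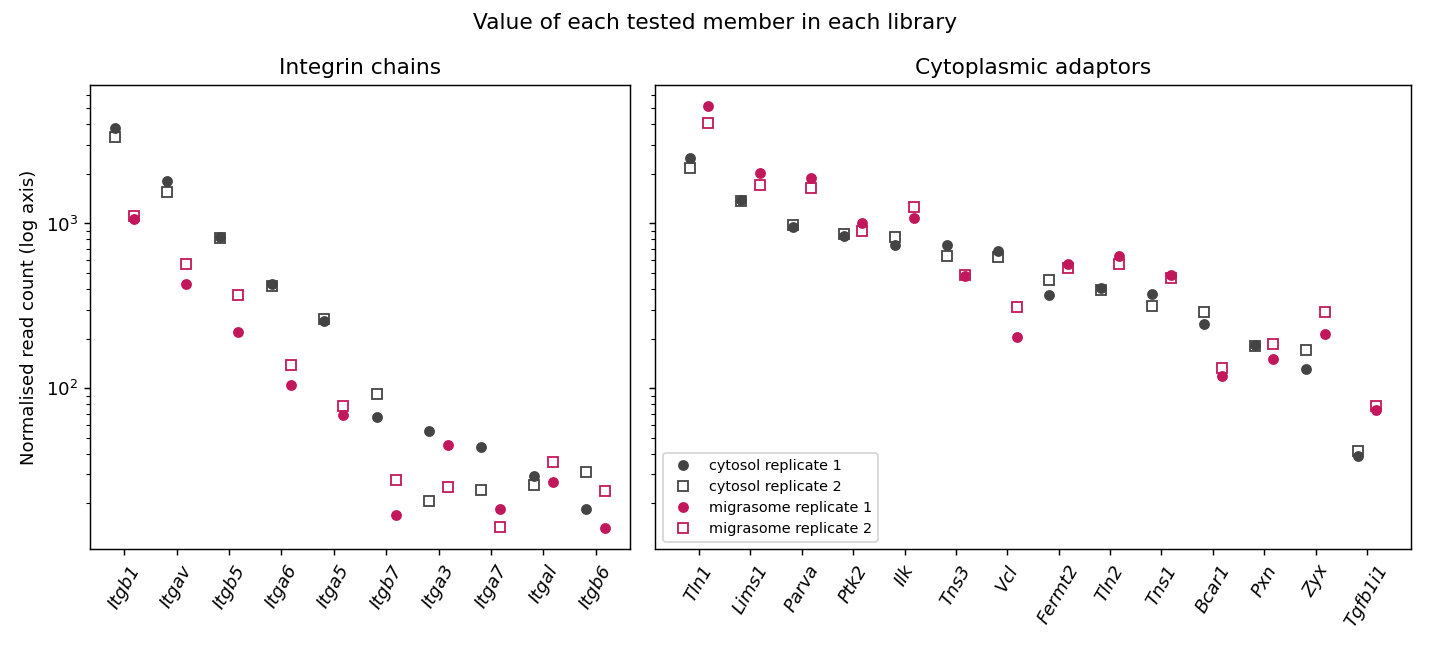
Normalised read count (log axis) of the 10 tested integrins and the 14 adaptors in each library, ordered by their cytosol mean; filled circles are replicate 1 and open squares replicate 2, dark grey for cytosol and magenta for migrasome. The magenta points lie below the grey ones for the 6 integrins on the left, and above them for 10 of the adaptors.

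Among the beta chains Itgb1, the common partner of most alpha chains, was by far the most abundant. Its gene spans bases 128685654 to 128733200 of chromosome 8, plus strand (GENCODE M21 on GRCm38, as for all positions here). Its value was 3780 and 3339 in cytosol and 1059 and 1112 in migrasome. Both migrasome values were far below both cytosol values. The log2 difference was -1.71 ± 0.20 (SE, limma adjusted p = 0.000555), or 3.27-fold lower with a 95% interval from 2.40 to 4.46. Itgb5, which pairs with the alpha v chain to bind vitronectin, stood at 830 and 815 in cytosol and at 221 and 366 in migrasome. The migrasome libraries differed from each other more than the cytosol ones did, and both lay below them. The difference was -1.53 ± 0.26 (limma adjusted p = 0.00248). Itgb7, a beta chain known from lymphocytes, was lower in level, at 66.7 and 92.6 in cytosol and 17.0 and 27.6 in migrasome. It also fell (-1.81 ± 0.36, limma adjusted p = 0.00592), but migrasome replicates 1 and 2 held only 12 and 21 reads of it, and it no longer passed when cytosol replicate 2 was left out (limma adjusted p = 0.0538). Itgb6, an epithelial beta chain, stood at 18.6 and 30.9 in cytosol and 14.1 and 23.7 in migrasome, groups that overlap, and did not pass. Its interval runs from -1.35 to 0.60, so a fall as large as that of Itgb1 (-1.71) lies outside it. Migrasome replicates 1 and 2 held only 10 and 18 reads of Itgb6, however, and the interval rests on the spread shared across genes.

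The alpha chains Itgav, Itga6 and Itga5 fell by nearly the same amount as their beta partners. Itgav encodes alpha v, which binds the RGD motif of matrix proteins and lies on chromosome 2 from 83724397 to 83806916 (plus strand). It stood at 1811 and 1560 in cytosol and at 431 and 567 in migrasome, a difference of -1.76 ± 0.22 (limma adjusted p = 0.00065). Itga5, the fibronectin receptor chain, lies on chromosome 15 from 103344286 to 103366763 (minus strand). It stood at 257 and 263 in cytosol and at 69.3 and 77.6 in migrasome (-1.81 ± 0.23, limma adjusted p = 0.000728). Itga6, a laminin receptor chain on chromosome 2 from 71745616 to 71858416 (plus strand), stood at 428 and 416 in cytosol and at 105 and 138 in migrasome (-1.80 ± 0.23, limma adjusted p = 0.000712). For all of these the groups were far apart. Differences of the 6 integrins that fell ran from -1.81 to -1.53, and each lies within the 95% interval of every other.

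Ratios of partner chains overlapped between migrasome and cytosol. The value of Itga5 over that of Itgb1 was 0.0679 and 0.0789 in cytosol and 0.0654 and 0.0698 in migrasome. That of Itga6 over Itgb1 was 0.113 and 0.125 in cytosol and 0.0988 and 0.124 in migrasome, and that of Itgav over Itgb5 was 2.18 and 1.91 in cytosol and 1.96 and 1.55 in migrasome. Values per kilobase of exon allow a rough comparison of different genes. The length used counts all annotated exons of a gene and can exceed that of its principal transcript. For Itga6 it was 9025 against 4310 bases, and for Itga5 4933 against 4382. The order of genes therefore depends on the length used. By principal transcript length Itga6 stands above Itga5 in both groups, because its transcript is shorter and its mean higher. Those means were 422 against 260 in cytosol and 121 against 73.5 in migrasome. Per kilobase of all annotated exons, Itgb1 made up 76.6% ± 1.89 of all beta chain values in cytosol and 74.2% ± 6.15 in migrasome. Itgb5 made up 20.4% ± 1.02 and 22.6% ± 5.38. Among alpha chains Itgav led, with 57.3% ± 1.22 of the summed values per kilobase in cytosol and 51.0% ± 3.43 in migrasome. Itga5 held 19.4% ± 1.97 and 16.5% ± 0.75, and Itga6 17.2% ± 1.10 and 14.8% ± 1.04 (SD, n = 2).

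The other alpha chains with enough reads to test did not pass. Itga7, a laminin receptor chain best known in muscle, stood at 44.2 and 24.0 in cytosol and at 18.4 and 14.5 in migrasome. Its groups did not overlap, and its difference was -0.96 with an interval from -1.89 to -0.024 (limma adjusted p = 0.112). Only 13 and 11 reads of it were in migrasome replicates 1 and 2. Itga3, another laminin receptor chain, stood at 55.1 and 20.6 in cytosol and 45.3 and 25.01 in migrasome. Replicate 1 was the higher library in both groups, and the difference was -0.0042 with an interval from -1.09 to 1.08. Itgal, the alpha chain of the leukocyte integrin LFA-1, stood at 29.5 and 26.1 in cytosol and 26.9 and 35.5 in migrasome. Its difference of 0.15 has an interval from -0.63 to 0.94, which does not reach the sizes of the chains that fell. Migrasome replicates 1 and 2 held only 19 and 27 reads of Itgal. Itgb2, the beta chain that LFA-1 needs, had 0 to 3 reads per library. Of 10 leukocyte markers 8 stayed below 10 in every library, among them Ptprc, the pan-leukocyte marker CD45, at 0 to 1.32. The rest, Cd14 and Lyz2, lay below Itgal in every library. Cd14 stood at 17.1 and 21.9 in cytosol and 0 and 13.2 in migrasome, and Lyz2 at 11.6 and 17.1 in cytosol and 9.90 and 6.58 in migrasome. Their part in the Itgal value was not tested.

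The remaining 16 integrins did not reach the filter, and the highest value among them was 6.58, for Itgae in migrasome replicate 2. Itga1, Itga2, Itgad and Itgax had no read in any library. A gene with no read may still lie below the value of 3 reads, which is 2.06 to 4.24 depending on the library and covers counting error only. The collagen-binding chains Itga1, Itga2, Itga10 and Itga11 were all in this low group, as were Itga4, Itga8, Itga9, the platelet chain Itga2b, the leukocyte chains Itgam, Itgad, Itgax and Itgae, and Itgb2, Itgb3, Itgb4 and Itgb8. No difference between migrasome and cytosol was detectable for them at this depth. Markers of endothelium (6 genes), epithelium (6) and platelets (5) were below 10 in every library. Of 9 fibroblast markers Vim, S100a4, Col1a1 and Col1a2 were the most abundant, whereas Dcn (0 to 4.24) and Fap (0 to 1.32) also stayed below 10 in every library. The summed fibroblast markers came to 52564 and 48240 in cytosol and 72839 and 58892 in migrasome. Most of each sum came from Vim and S100a4. Vim stood at 16385 and 14221 in cytosol and 33076 and 26052 in migrasome. S100a4 stood at 22885 and 24440 in cytosol and 37523 and 29912 in migrasome, so the sum does not describe the other markers. Of the 7 tested 4 fell and 1, Vim, rose (0.94, limma adjusted p = 0.0299), against 17.7% of all tested genes lower and 8.68% higher. Those that fell were Col1a1 (-1.97), Col1a2 (-2.20), Pdgfra (-1.64) and Pdgfrb (-2.05), and S100a4 (0.50) and Thy1 (1.03) did not pass.

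**Figure D2:**
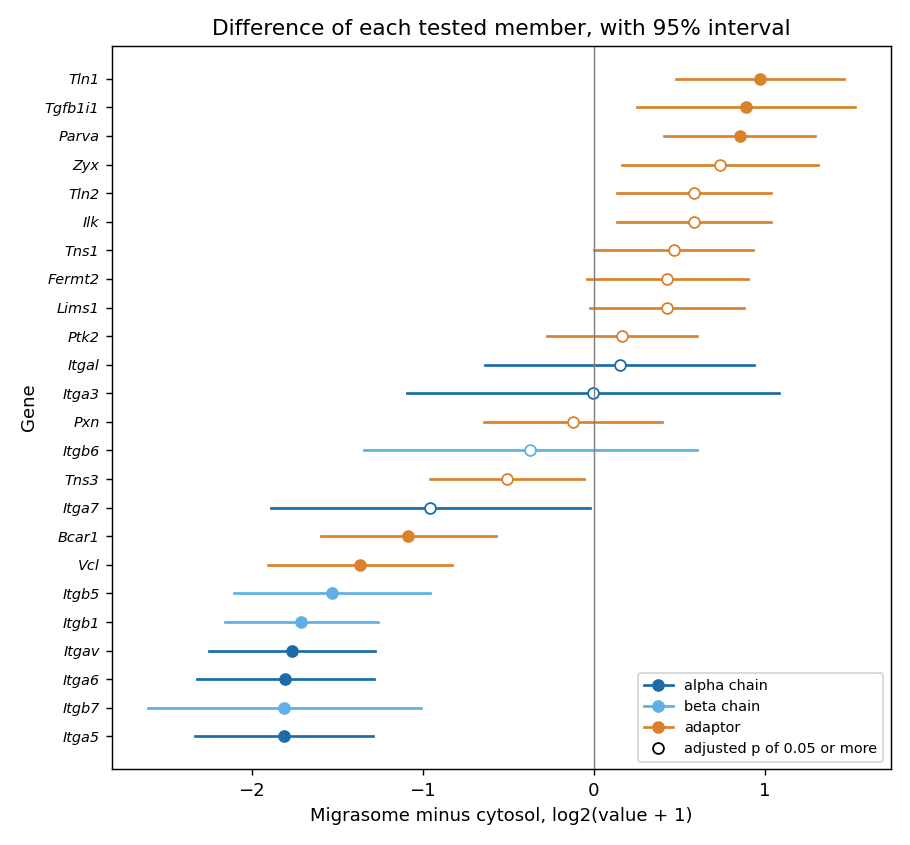
Log2 difference, migrasome minus cytosol, of the 24 tested members with its 95% interval (limma), sorted by size; filled points passed an adjusted p of 0.05 and the colour gives the class. The 6 integrins that fell form the lower end, Vcl and Bcar1 come next, and the upper end holds adaptors alone.

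Of the proteins that bind the integrin tail, talin 1 gave the clearest rise. Tln1 lies on chromosome 4 from 43531519 to 43562691 (minus strand). It stood at 2485 and 2184 in cytosol and at 5160 and 4048 in migrasome. The groups were well apart, and the difference was 0.97 ± 0.22 (limma adjusted p = 0.0116). The value of Itgb1 over that of Tln1, a receptor and its activator within the same library, was 1.52 and 1.53 in cytosol and 0.205 and 0.275 in migrasome. Tln1 no longer passed with quantile normalization (difference 0.50, limma adjusted p = 0.0621) and without cytosol replicate 2 (limma adjusted p = 0.13). Tln2, the second talin gene, stood at 405 and 394 in cytosol and 634 and 567 in migrasome, and its difference of 0.59 did not pass (limma adjusted p = 0.0556). Fermt2, which encodes kindlin-2, stood at 368 and 453 in cytosol and 569 and 534 in migrasome (0.43, interval -0.038 to 0.90). The tensins, which join the tail to actin, lay on opposite sides of 0. Tns1 stood at 375 and 317 in cytosol and 485 and 470 in migrasome (0.47, limma adjusted p = 0.118), and Tns3 at 744 and 639 in cytosol and 482 and 486 in migrasome (-0.51, limma adjusted p = 0.0855). Neither passed, but in both the groups did not overlap, and the value of Tns1 over that of Tns3 was 0.505 and 0.496 in cytosol against 1.01 and 0.967 in migrasome.

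The genes of the trio that sits on the beta tail, integrin-linked kinase, PINCH and parvin, all had higher values in migrasome, and 1 passed. Parva, which encodes alpha-parvin, stood at 958 and 981 in cytosol and 1875 and 1639 in migrasome, and rose by 0.85 ± 0.20 (limma adjusted p = 0.0128). Ilk stood at 735 and 822 in cytosol and 1082 and 1258 in migrasome (0.58, limma adjusted p = 0.0569). Lims1, the gene of PINCH-1, stood at 1383 and 1370 in cytosol and 2015 and 1704 in migrasome (0.43, limma adjusted p = 0.136). None of these groups overlap. Parva no longer passed when cytosol replicate 1 or 2 was left out (limma adjusted p = 0.106 and 0.0913), with little change in its size (0.84 and 0.87). Exons of Ilk overlap those of Rrp8 and Taf10 on the other strand, and no label says whether the counting used strand, so the Ilk value is uncertain. The same holds for Tln1, which overlaps Creb3 (102 to 271 across libraries), and for Vcl, which overlaps Ap3m1 (453 to 550).

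Vinculin mRNA, unlike that of its partner talin, fell. Vcl, which encodes the protein that locks talin to actin, lies on chromosome 14 from 20929398 to 21033676 (plus strand). It stood at 677 and 626 in cytosol and at 205 and 309 in migrasome, groups that are far apart. It fell by 1.37 ± 0.24 on the log2 scale (limma adjusted p = 0.00323), and this call held under all 15 alternatives run. The value of Vcl over that of Tln1 was 0.273 and 0.287 in cytosol and 0.0397 and 0.0764 in migrasome, whereas Vcl over Itgb1 was 0.179 and 0.188 in cytosol and 0.194 and 0.278 in migrasome. Its richest stretch, printed above, holds 12 T-second codons, at codons 189 to 209 of 1066, and vinculin is a cytoplasmic protein.

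Of the 3 LIM-domain scaffolds 1, Tgfb1i1, rose. Zyx, which encodes the mechanosensitive protein zyxin, stood at 130 and 170 in cytosol and 212 and 292 in migrasome, and its difference of 0.74 did not pass (limma adjusted p = 0.0582). It passed in 5 of the 15 alternatives. Tgfb1i1, the gene of the paxillin relative Hic-5, stood at 38.8 and 41.8 in cytosol and 73.5 and 77.6 in migrasome. It rose by 0.89 ± 0.29 (limma adjusted p = 0.0447), but its libraries held only 50 to 61 reads of it each, and it did not pass in 6 of 15 alternatives, among them the omission of cytosol replicate 1 or 2 (limma adjusted p = 0.265 and 0.198). Pxn, which encodes paxillin itself, stood at 184 and 181 in cytosol and at 150 and 187 in migrasome, groups that overlap, and its interval from -0.64 to 0.40 leaves out the size of the Tgfb1i1 rise. Of the signalling members, Ptk2 (focal adhesion kinase) stood at 838 and 859 in cytosol and 1006 and 898 in migrasome (0.16, interval -0.28 to 0.60). Bcar1, the gene of the Src substrate p130Cas, lies on chromosome 8 from 111710474 to 111743809 (minus strand). It stood at 247 and 290 in cytosol and at 119 and 133 in migrasome. It fell by 1.08 ± 0.23 on the log2 scale (limma adjusted p = 0.00833), and did not pass when cytosol replicate 2 was left out (limma adjusted p = 0.0916).

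Adaptor calls in the upward direction thus depended more on single libraries than those of the integrins. Without cytosol replicate 2, 5 integrins and 1 adaptor, Vcl, passed as lower and 0 adaptors as higher, against 10.9% of all tested genes lower and 2.13% higher. Without cytosol replicate 1, 6 integrins and 2 adaptors passed as lower (10.6% of all genes) and 1 adaptor, Tln1, as higher (2.63%). Without migrasome replicate 1 or 2, 6 integrins and 2 adaptors were lower (17.0% and 25.8% of all genes) and 5 adaptors higher (8.45% and 19.2%). An omission leaves 1 library in its group, which is then assumed to vary like the other group. Of the 24 tested members, both migrasome libraries lay below both cytosol libraries for 7 integrins and 3 adaptors, and above them for 0 integrins and 10 adaptors, where 36.3% of all tested genes lay below and 33.3% above.

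The hydrophobic stretch printed above was then compared with the difference over all tested genes. Among 9980 coding genes with a stretch, those with 14 or more T-second codons in it numbered 976, of which 588 fell (60.2%) and 26 rose (2.66%), with a median difference of -1.20. Of the 9004 genes with 13 or fewer, 1210 fell (13.4%) and 816 rose (9.06%), with a median of 0.055. These shares moved with the processing. In the alternatives with all 4 libraries, 46.9% (no filter) to 69.1% (replicate block) of the genes with 14 or more fell. In these 2 settings the share of genes with 13 or fewer that fell was 8.70% and 19.8%. The division at 14 was chosen after the values were seen, and these shares are a description. Of the 10 tested integrins 9 belong to the richer class, in which Itgal, Itga3, Itgb6 and Itga7 did not pass. Itgb7 is the exception, with 11; of its 2 tied stretches the first starts at codon 1. All 14 adaptors belong to the poorer class, in which Vcl and Bcar1 stood lower than most genes with as many such codons: the lower quartile was -0.74 at 12 codons, against -1.37 for Vcl, and -0.47 at 11 codons, against -1.08 for Bcar1. The fall of Itgb1 (-1.71) was within the quartiles of genes with 15 such codons, which ran from -1.71 to -0.41, with a median of -1.26. Itgav (-1.76), Itga6 (-1.80) and Itga5 (-1.81) lay below the lower quartile at 16 codons, which was -1.75.

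**Figure D3:**
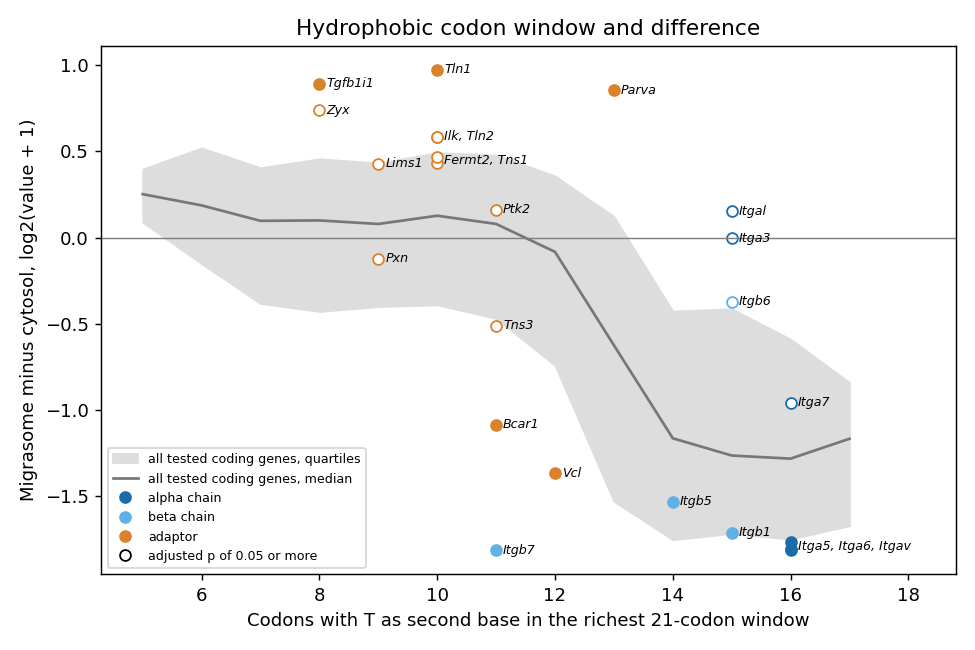
Log2 difference, migrasome minus cytosol, of each tested member against the number of T-second codons in its richest stretch of 21; the line and band give the median and quartiles of all tested coding genes with that number (at least 20 genes). The median of all genes drops between 12 and 14 codons, most integrins lie to the right of that step, Vcl, Bcar1 and Itgb7 lie far below the band, and Itgav, Itga6 and Itga5 lie just below it.

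Other genes of the adhesion pathway were taken from lists drawn up by function, also with earlier results of these data known. Of 48 tested cytoplasmic adhesion proteins outside the members 10 rose (20.8%, against 8.68% of all tested genes), 3 fell (6.25%, against 17.7%) and 35 did not pass, with a median of 0.23. Palld, which encodes the actin crosslinker palladin, gave the largest rise: it stood at 113 and 78.9 in cytosol and at 634 and 416 in migrasome (2.43 ± 0.28, limma adjusted p = 0.00055). Lpp, a relative of zyxin, rose by 1.06 ± 0.21, from 784 and 628 to 1533 and 1390. Among the others that rose were Rsu1 (0.85), which binds PINCH, Iqgap1 (0.97) and Itgb1bp1 (0.84), which binds the beta 1 tail. Those that fell were Nedd9 (-0.85), a relative of p130Cas, the LIM protein gene Limd1 (-0.72) and the phosphatase gene Ptpn12 (-0.70), whose protein acts on p130Cas. The abundant Flna, Actn1, Ppfibp1 and Rapgef1 had differences of 0.50, 0.59, 0.58 and 0.34 and did not pass. Scaling every library to the same total turned the balance of this list, to 2 higher (2.97% of all genes) and 7 lower (23.2%), with a median of -0.041. Without cytosol replicate 2 there were 2 higher (2.13% of all genes) and 0 lower (10.9%), and without cytosol replicate 1 there were 5 higher (2.63%) and 2 lower (10.6%). Without migrasome replicate 2 there were 18 higher (19.2%) and 4 lower (25.8%).

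Of 20 tested membrane partners of integrins 18 fell and 0 rose, against 17.7% of all tested genes lower and 8.68% higher. Their median was -1.62, the same to 2 decimals as that of the integrins, and ran from -1.78 to -1.54 when 1 library was left out. The calls depended more on single libraries: fewer partners passed as lower without cytosol replicate 1 or 2, as over all genes. Plaur, the urokinase receptor, fell from 240 and 378 to 39.6 and 64.5 (-2.55 ± 0.32), and the hyaluronan receptor Cd44 from 1549 and 1100 to 236 and 395 (-2.09 ± 0.28). The abundant Ptgfrn (-1.56), Bsg (-1.94) and Lrp1 (-1.43) also fell. The 2 that did not pass were Cav1 and Thy1. Cav1, whose protein caveolin-1 is inserted into the membrane as a hairpin, stood at 1078 and 1377 in cytosol and 1116 and 1188 in migrasome. Thy1 was low, at 8.53 and 7.54 in cytosol and 12.7 and 23.7 in migrasome. Of 19 tested ligands 18 fell and 0 rose, against the same shares of all genes. Their median was -1.83, and ran from -2.12 to -1.57 when 1 library was left out. Fewer ligands passed as lower when cytosol replicate 1, cytosol replicate 2 or migrasome replicate 1 was left out. Fn1, which encodes fibronectin, fell from 3958 and 2093 to 1502 and 1352 (-1.01 ± 0.29, limma adjusted p = 0.0286), the smallest of the 18 falls. Spp1, the gene of osteopontin, fell by 2.01 ± 0.21, Col4a1 by 2.03 ± 0.24, Col3a1 by 2.03 ± 0.29 and Col1a2 by 2.20 ± 0.25. The ligand gene that did not pass was Tgfb1 (0.17), at 23.3 to 29.7 in the 4 libraries; Tgfb1 and Thy1 were named after their values were seen. With edgeR's quasi-likelihood test on the recovered reads 18 membrane partners, 18 ligands and 6 integrins were lower and 0 higher, against 19.0% of all tested genes lower and 9.86% higher. The richest stretches of the tested ligands, most of which are secreted, held 9 (Fn1) to 13 (Ltbp1) T-second codons in the 18 that had one, fewer than those of 9 of the 10 tested integrins.

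**Figure D4:**
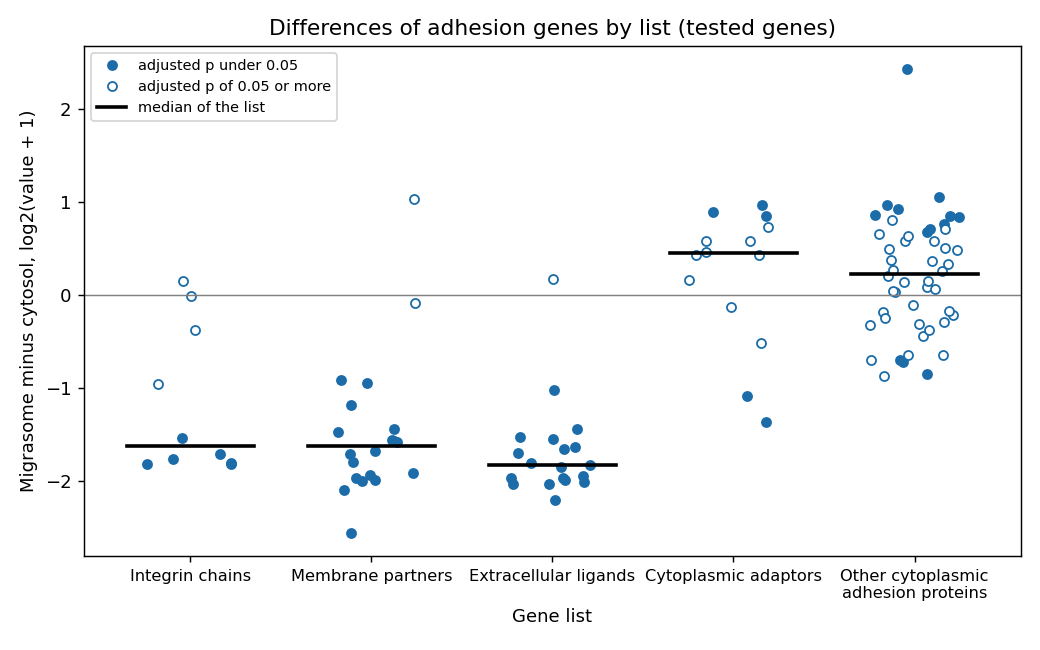
Log2 difference, migrasome minus cytosol, of every tested gene in 5 adhesion gene lists; filled points passed an adjusted p of 0.05 and bars are medians. Integrins, their membrane partners and their ligands centre between -1.83 and -1.62, and both cytoplasmic lists centre above 0; with the same total per library the larger of these centres at -0.041.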

How the data were processed

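RNA of purified migrasome and of cytosol was sequenced in 2 libraries each. The authors deposited a signal per gene, read counts divided by 1 size factor per library; STAR, HTSeq, DESeq, cutadapt, FastQC and Trimmomatic and the build GRCm38 are listed, per the submitters' processing notes. Versions, annotation and strand setting: not given in the sources used here. All values (100%) were whole multiples of the value of 1 read within a relative tolerance of 0.001. Large counts and values of 0 pass this check in any case, so it bears on small counts only. Whole reads were recovered by rounding. Replicates differed by more than counting noise (chi-square per degree of freedom 17.6 in cytosol and 27.9 in migrasome).

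Log2(value + 1) was fitted with limma 3.58.1 (eBayes with trend) in R 4.3.3, without a block, for genes at 10 or more in at least 2 libraries, with Benjamini-Hochberg adjustment over all of them. Alternatives changed the pseudocount, filter, scaling, variance model, tool (edgeR 4.0.16, DESeq2 1.42.0), block and libraries. Members and lists were chosen with earlier results of these data known. Every tested member is named; of other lists, the 4 most abundant and up to 2 largest calls each way were to be named. Rsu1, Iqgap1, Itgb1bp1, Ptpn12, Ptprc, Dcn, Fap, Pdgfra, Ltbp1, Thy1 and Tgfb1 fall outside that rule. Figures used matplotlib 3.10.9.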

Additional observations from a re-analysis of the deposited data

How the results depend on the processing

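Of 356 values of single members under 15 alternatives, 320 kept their direction and side of the threshold, 15 newly passed, 12 no longer passed and 9 changed sign. The sign changes were all in members that did not pass: Itga3 (0.36 with quantile normalization, and from -0.69 to 0.68 over the omissions of 1 library), Itgal (-0.11 with the same total per library, -0.043 without migrasome replicate 2, with 0.35 at the other end), Pxn (0.16 with quantile normalization, and from -0.28 to 0.034 over those omissions) and Ptk2 (-0.11 with the same total, -0.0038 with quantile normalization). The number of integrins that passed as lower was 5 to 7 and of those higher 0 in every alternative.

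Scaling to the same total moved the median of all genes to -0.27, of the integrins to -1.89 and of the adaptors to 0.18, so relative to all genes the adaptors kept their distance; quantile normalization moved the median of all genes to 0.11 and the distance between the classes to 1.90. Calls over all genes were 1741 without a filter; those higher were 393 without a filter, 322 with the same total and 483 without a trend. With the replicate block 4423 genes passed, 1802 higher, and 6 adaptors were higher. Same-numbered libraries deviated together only weakly (r = 0.23 over 10860 genes), and no label says that the numbers pair them. Leaving out 1 library gave 1414 to 4885 calls over all genes (1147 to 2800 lower, 231 to 2085 higher), 0 to 5 adaptors higher and 1 to 2 lower. The integrin median then ran from -1.82 to -1.32, the adaptor median from 0.42 to 0.49 and their distance from 1.74 to 2.30. The causes were not tested. With 2 libraries a group, integrins under about 10 (16 of 26) are beyond the depth.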
